A study of Rattus norvegicus with 2 samples.

Results

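The library described here was made from the normal, wild-type (WT) cardiac outflow tract (OFT) of the rat at E13.5, an embryonic stage in days, and it was 1 of the 2 libraries of the study. A gene was taken as a member when at least 20 reads had been counted for it in that library, and members were ranked by RPKM, the number of reads scaled to transcript length (per kilobase) and to the counted reads of the library. This rule left 14013 of the 37203 genes in the table, or 37.7%. Among the genes just outside it, 125 had exactly 19 counts, with a median of 1.12 RPKM and a range of 0.253 to 27.9. Just inside it, 100 genes had exactly 20 counts, with a median of 1.14 RPKM and a range of 0.256 to 6.39.

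The study asked what sorting nexin 17, an endosomal adaptor that returns membrane proteins to the cell surface, does in heart development. Both libraries came from Sprague-Dawley rats, and each was a single RNA sample for which the OFTs of 10 embryos of that stage had been combined. The WT embryos carried intact Snx17, and the embryos of the other library (HO) were Snx17-/-, a deletion made in every cell by CRISPR/Cas9. The column names of the deposited tables carry another stage than the sample labels, and the stage given in the labels is used here. Since there was 1 library per genotype, no difference between genotypes was tested. The HO library is given only as a second library of the same tissue from the other genotype, and it is no replicate of the WT library. Where the libraries differ, genotype and preparation cannot be told apart. Intervals beside RPKM values are exact Poisson 95% intervals of the count, which cover counting error and not the spread between embryos or preparations.

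The OFT is the vessel at the arterial pole of the embryonic heart, which is later divided into the aorta and the pulmonary trunk. Its wall is built from second heart field progenitors that become heart muscle and smooth muscle, and its cushions are endocardial and neural crest derived mesenchyme embedded in a matrix rich in hyaluronan and proteoglycans. Signals of the BMP, TGF-beta, FGF, Wnt, Notch, semaphorin and endothelin families pattern these cells, and elastic fibres and collagens are laid down as the arterial wall forms.

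The WT column held 9321811 counts and the HO column 9528615, so that 1 read on a transcript of 1000 bases was worth 0.107 RPKM in the WT library. The median member stood at 10.4 RPKM. Of the members, 13390 reached 1 RPKM, 7145 reached 10 RPKM, 710 reached 100 RPKM and 37 reached 1000 RPKM. The share at 10 RPKM or more was 51% of all members and 52.6% of the 12649 mRNA genes among them. The share of mRNA genes is the background against which the gene classes are read. The 100 highest genes took 19.1% of the counts, and 607 genes held 50% of the summed RPKM. Ranks were close in the HO library, where 93 of the 100 highest WT genes were again among the 100 highest, and the RPKM of 13559 genes with 20 counts in both had a Spearman rho of 0.984. This rho runs across genes, which share transcript length and are not independent replicates.

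The highest gene of all was H19, an imprinted noncoding RNA of embryonic tissues, with 116826 counts and 5390.0 RPKM (5359 to 5421). Mitochondrial transcripts followed closely, with COX2, a subunit of cytochrome c oxidase, at 5021 RPKM and ATP6, a subunit of ATP synthase, at 4820.5 RPKM. The embryonic globins Hbe1 and Hbz stood at 3628 and 3495 RPKM. The next tier was muscle and cytoskeleton. Myl7, the atrial and early embryonic regulatory myosin light chain, reached 2804 RPKM (2763 to 2845), and cardiac alpha-actin Actc1 reached 2545 RPKM (2518 to 2571). Cytoplasmic beta-actin Actb, at 2543 RPKM, differed from Actc1 by less than counting error, and cardiac troponin T Tnnt2 stood just below at 2513 RPKM. Other places among the 25 highest named genes went to the mitochondrial transcripts COX3, CYTB, COX1, ND1, ATP8 and ND2, to the ribosomal genes Rplp0, Rpsa, Rps15 and Rpl41, to the housekeeping genes Ubb, Atp5b, Eef2 and Tubb5 and to the growth factor Igf2. In the HO library 23 of the 25 genes were again among the 25 highest named genes. As groups, 179 ribosomal protein genes and their copies held 9.02% of the summed RPKM, 12 mitochondrial protein genes held 5.47%, and 7 globin genes held 2.04%.

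Of 34 imprinted genes measured, many of them regulators of fetal growth, 30 had 20 counts or more, or 88.2% against 54% of all mRNA genes in the table. Of these, 9 stood at 100 RPKM or more, a level that 5.07% of all genes with at least 20 counts reached. Igf2, the fetal insulin-like growth factor encoded next to H19, had 62147 counts and 1483 RPKM (1472 to 1495). Grb10, an adaptor that dampens insulin and IGF receptor signalling, stood at 432 RPKM, Gnas, the stimulatory G protein alpha subunit, at 404 RPKM, and Igf2r, the receptor that clears Igf2, at 375 RPKM. Mest, a mesoderm transcript, stood at 364 RPKM and Cdkn1c, a cell cycle inhibitor, at 171 RPKM. Not every imprinted gene was high: Phlda2, a growth restraint gene of the placenta, had 1 count, and Dio3, which inactivates thyroid hormone, had 7 counts.

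Marker lists were used to check the labelled tissue. Of all mRNA genes in the table, 54% had at least 20 counts, the share to set beside each list. In bulk samples fewer cells of a type and less RNA per cell cannot be told apart, so levels of markers are not proportions of cells. All 24 sarcomere genes had at least 20 counts, with a median of 303 RPKM, led by Myl7, Actc1 and Tnnt2, and only Tcap, at 29 counts and 6.22 RPKM, and Ttn, at 3.08 RPKM, lay under 10 RPKM. All 16 smooth muscle markers were present too, led by the actin-binding protein Tagln at 699 RPKM, smooth muscle actin Acta2 at 686 RPKM and desmin, Des, at 213 RPKM. All 17 markers of cushion mesenchyme were present, led by Tbx20 at 200.2 RPKM, the proteoglycan Vcan at 181 RPKM and periostin, Postn, at 113 RPKM. Each of these lists is shared in part with other cells of the tissue, as with Des, which heart and smooth muscle both use.

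Endothelium and endocardium gave 23 of 24 markers, at lower levels: the TGF-beta co-receptor Eng stood at 63.8 RPKM, the receptor Tie1 at 57.9 RPKM and VE-cadherin, Cdh5, at 51.1 RPKM. Robo4, an endothelial guidance receptor, had 0 counts, which allows up to 3. Epicardial markers were present for 11 of 13 genes, with Clu at 161 RPKM, the retinoic acid enzyme Aldh1a2 at 52.4 RPKM and Tcf21 at 47.5 RPKM. The list for the outflow tract and second heart field was present for 13 of 18 genes. Rgs5, a pericyte and arterial smooth muscle regulator, led at 149.9 RPKM, followed by Bmp4 at 147 RPKM and Sema3c at 45.4 RPKM. Isl1, the progenitor factor of the second heart field, stood at 387 counts and 39.2 RPKM, while Tbx1 had 61 counts, Fgf10 had 16 counts, Fgf8 had 12 counts and Tdgf1 had 0. Tbx1, Fgf10, Fgf8 and Tdgf1 were thus low or under the minimum. Of the 13 genes of the list that passed, 7 reached 10 RPKM, or 53.8% against 52.6% of all mRNA genes that passed. The median of the 13 was 14.7 RPKM.

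Neural crest and glial markers divided, with 9 of 15 at 20 counts or more, or 60% against 54% of all mRNA genes. Of these 9, 3 reached 10 RPKM, or 33.3% against 52.6% of all mRNA genes that passed. Ets1, also an endothelial factor, stood at 32.3 RPKM, the neurotrophin receptor Ngfr at 29.1 RPKM and Erbb3 at 16.4 RPKM, but Sox10, which marks migrating crest and glia, had 69 counts and 2.44 RPKM. Foxd3, Tfap2b and Fabp7 of the same list had 0 counts. Chamber myocardium markers were present for 18 of 19 genes, led by sarcolipin, Sln, at 212 RPKM, the calcium pump Atp2a2 at 160.5 RPKM and phospholamban, Pln, at 146 RPKM. The chamber peptides Nppb and Nppa were lower, at 29.3 and 18.4 RPKM. Whether chamber tissue was included in the dissection was not tested.

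Cells that circulate or lie beside the OFT were covered by the other lists. Of 18 erythroid genes 16 reached 20 counts, or 88.9% against 54% of all mRNA genes. Of these, 10 reached 10 RPKM, or 62.5% against 52.6% of all mRNA genes that passed. Globins were high, and Ahsp, a haemoglobin chaperone, stood at 26.6 RPKM, but the erythroid factor Gata1 had only 4 counts. Macrophage and leukocyte genes reached 20 counts for 5 of 17, with none at 10 RPKM, and Cd163 had 0 counts. Of 18 markers of pharyngeal endoderm and foregut 3 reached 20 counts, led by the keratins Krt7 at 4.86 RPKM and Krt15 at 2.78 RPKM with the cadherin Cdh1 at 0.756 RPKM, and 9 had 0 counts: Foxa2, Foxa1, Shh, Nkx2-1, Sox2, Pax8, Pax9, Foxe1 and Sftpc. Of 13 hepatocyte markers 2 reached the minimum, Ttr with 43 counts and Apoa1 with 22, and none of 11 kidney and gonad markers did. Neuronal genes reached it for 10 of 18, or 55.6%, near the 54% of all mRNA genes. Of these 10, 2 reached 10 RPKM, or 20% against 52.6%. Stmn2 stood at 59.2 RPKM, peripherin, Prph, at 28.6 RPKM and Tubb3 at 6.88 RPKM. The shorter lists for lymphatic endothelium, platelets and surface ectoderm reached the minimum for 5 of 6, 3 of 7 and 6 of 11 genes. These are shares of 83.3%, 42.9% and 54.5%, against the same 54%. No foregut marker exceeded 4.86 RPKM and no hepatocyte marker exceeded 6.09 RPKM.

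Skeletal muscle and cartilage lists showed a split within each. Of 17 skeletal muscle genes 7 reached 20 counts, and of 15 cartilage genes 11 did. These are shares of 41.2% and 73.3%, against 54% of all mRNA genes. Skeletal alpha-actin Acta1, which embryonic heart also uses, had 16088 counts and 1200.1 RPKM, and creatine kinase Ckm had 23.4 RPKM, followed by the slow troponin Tnnt1 at 10.7 RPKM. The myogenic factor Myod1 had 1 count and Myog had 7, while Myf5, Myf6, Pax3, Pax7, Myh8, Chrna1 and Tmem8c had 0. Of the cartilage list, the cartilage collagen Col2a1 stood at 185 RPKM, the hyaluronan link protein Hapln1 at 66.9 RPKM and Col9a1 at 51.2 RPKM, but aggrecan, Acan, had 7 counts and Matn1 had 2.

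**Figure D1:**
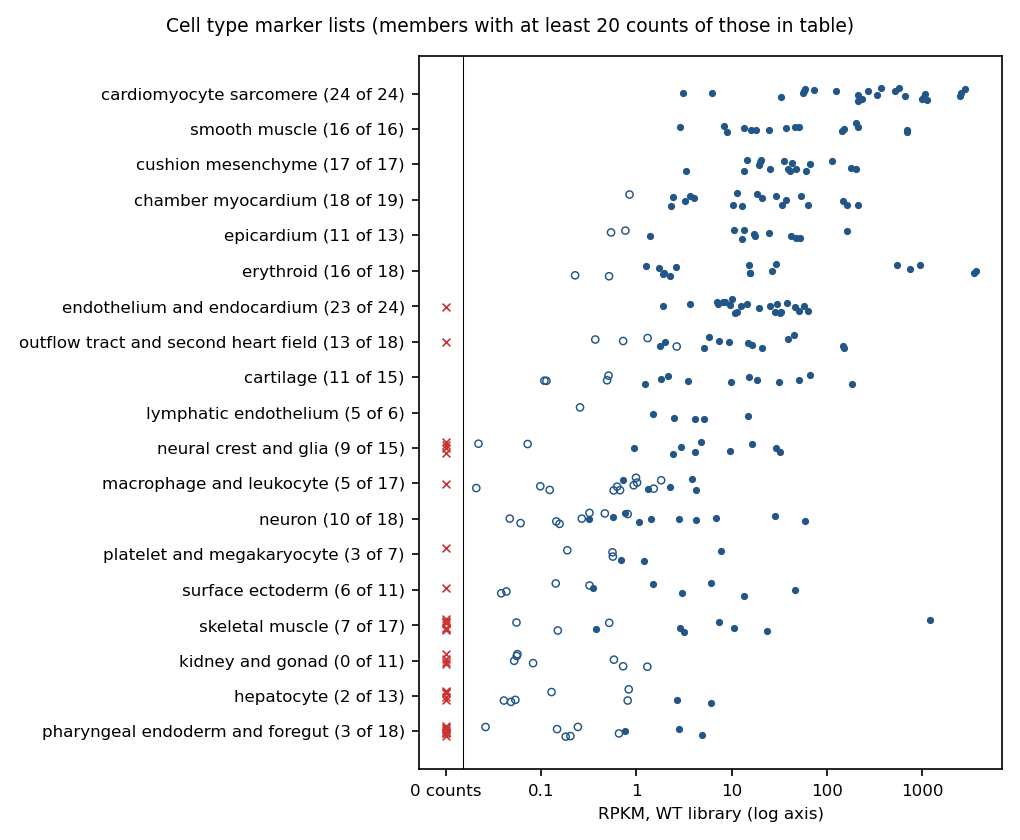
RPKM of each marker gene in the WT library on a log axis, 1 row per list, sorted by the list's median. Filled points have at least 20 counts, open points have 1 to 19 and red crosses have 0. Sarcomere, smooth muscle and cushion lists lie wholly in filled points, whereas most pharyngeal endoderm and hepatocyte markers are open points or crosses.

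Promoter sequences are shown for genes at 1000 RPKM or more whose start region holds a CArG box, the site to which serum response factor binds in muscle genes. The windows span 250 bases before to 50 bases after the start site in RefSeq, build GRCr8, of which 27457 genes have one, and the box was searched on both strands. Of the 36 mRNA genes at 1000 RPKM or more, 22 were matched to a window, or 61.1%. The windows of the muscle genes Myl7, Tnnt2, Myh7 and Tnni1 held no box, and the 4 windows below held a box. It is in capitals, and in the Acta1 window capitals also mark a TATAAA on the gene's strand close before the start:
Actc1: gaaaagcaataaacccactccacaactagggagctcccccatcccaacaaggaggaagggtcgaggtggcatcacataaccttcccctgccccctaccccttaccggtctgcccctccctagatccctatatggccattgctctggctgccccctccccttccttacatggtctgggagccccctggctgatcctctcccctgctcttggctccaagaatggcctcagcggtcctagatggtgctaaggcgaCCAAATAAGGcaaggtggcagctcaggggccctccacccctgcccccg
Igf2: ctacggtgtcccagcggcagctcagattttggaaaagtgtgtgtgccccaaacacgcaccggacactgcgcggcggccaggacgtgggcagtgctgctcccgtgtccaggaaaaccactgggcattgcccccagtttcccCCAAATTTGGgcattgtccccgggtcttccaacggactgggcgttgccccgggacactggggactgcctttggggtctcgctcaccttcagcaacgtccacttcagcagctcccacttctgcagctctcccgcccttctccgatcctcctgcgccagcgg
Acta1: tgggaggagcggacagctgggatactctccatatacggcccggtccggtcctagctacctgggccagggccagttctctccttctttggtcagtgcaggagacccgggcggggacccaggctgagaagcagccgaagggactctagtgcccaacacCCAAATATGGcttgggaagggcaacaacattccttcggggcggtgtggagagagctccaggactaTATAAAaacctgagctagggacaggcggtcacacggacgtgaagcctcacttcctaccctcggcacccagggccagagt
Myl3: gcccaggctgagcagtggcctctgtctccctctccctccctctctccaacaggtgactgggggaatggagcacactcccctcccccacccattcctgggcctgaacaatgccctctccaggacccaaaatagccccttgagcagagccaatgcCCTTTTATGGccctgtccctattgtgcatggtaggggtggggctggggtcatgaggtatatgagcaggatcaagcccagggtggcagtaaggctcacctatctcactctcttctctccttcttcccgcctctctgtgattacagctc
The box begins 94 bases before the start site in Acta1, 97 bases before it in Myl3 and 110 bases before it in Igf2. In Actc1 it lies just after the start. These windows are at chr3:121271778-121272077 on the minus strand for Actc1, chr1:207253931-207254230 on the minus strand for Igf2, chr19:68784145-68784444 on the minus strand for Acta1 and chr8:119616844-119617143 on the plus strand for Myl3. Over all 27457 windows, 1.64% held a CArG box. TATAAA on the gene's strand close before the start, as in Acta1, was held by 413 of the windows, and TATAAA anywhere in the window on either strand by 14.3%. A match of letters is a description and no evidence of binding. A comparison of motif shares or base composition between levels was void for the members as a whole, since 77.6% of the 12649 mRNA genes at 20 counts or more had a window and at least 80% were required.

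Contractile proteins come in paired isoforms, and the library held both of each pair in unequal amounts. The slow and fetal myosin heavy chain Myh7 stood at 1067 RPKM and the fast chain Myh6 at 367 RPKM, so that the ratio of Myh6 to Myh7 was 0.344 (0.338 to 0.349). Slow skeletal troponin I Tnni1, the fetal form, stood at 1001 RPKM and the adult cardiac form Tnni3 at 231 RPKM, a ratio of Tnni3 to Tnni1 of 0.231 (0.220 to 0.243). The ventricular light chain Myl3 stood at 1134 RPKM and its atrial counterpart Myl4 at 573 RPKM. In the regulatory pair the order was the other way round, with atrial Myl7 at 2804 RPKM against ventricular Myl2 at 519 RPKM. Among alpha-actin genes and gamma smooth muscle actin, Actc1 held 57.1% of the summed RPKM, Acta1 26.9%, Acta2 15.4% and Actg2 0.55%. Near-identical coding sequences make reads of actin genes hard to assign, and how such reads were assigned is not given in the sources used here.

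Of 679 transcription factors in the table, 406 had at least 20 counts and 208 of these reached 10 RPKM. That is 51.2% of the factors that passed, next to the background of 52.6% over all mRNA genes that passed, and their median of 10.2 RPKM lay beside 10.9 RPKM for those mRNA genes. Over all matched genes, 59.8% of the factors passed the minimum against 54% of mRNA genes, and their median was 2.53 RPKM against 1.58 RPKM. In all, 6 factors reached 100 RPKM. Id3, a helix-loop-helix inhibitor induced by BMP signals, led by a wide margin with 4014 counts and 457 RPKM (443 to 471). Tbx20, a T-box factor of cushion and myocardium, had 6298 counts and 200.2 RPKM (195 to 205), and Gata4, a zinc finger factor of the heart, had 5519 counts and 179 RPKM (174 to 184). These 3 did not overlap in their intervals.

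Ankrd1, a stretch-responsive muscle cofactor, stood at 150.3 RPKM, Tead2, a partner of the Hippo pathway coactivators, at 140.4 RPKM and Id2 at 124 RPKM. Below them the order was flat. From Tsc22d1, a TGF-beta induced leucine zipper protein, at 93.8 RPKM, through Creb3l2, Meox1, Atf4, Jund, Tcf3, Maz and Pbx2 to Gata6 at 85.4 RPKM, none of the 8 neighbouring pairs differed by more than counting error. Of these, Meox1 is a homeobox factor of somites and mesenchyme, Atf4 and Creb3l2 act in stress and secretory pathways, and Tcf3 is the general partner of tissue-specific helix-loop-helix factors. In the HO library 12 of the 15 highest factors were again among its 15 highest, without Creb3l2, Meox1 and Gata6.

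Within the factor families, Tbx20 held 77.7% of the RPKM of 7 T-box genes, with Tbx2, a repressor of the non-chamber myocardium, at 24.8 RPKM and the epicardial Tbx18 at 24.5 RPKM, while the chamber factor Tbx5 stood at 2.41 RPKM. Gata4 held 48.7% of the GATA genes, with Gata6 at 85.4 RPKM and Gata5 at 80.5 RPKM. Nkx2-5, the homeobox factor of cardiac progenitors and muscle, stood at 35.7 RPKM and held 98.2% of its group, and the related Nkx2-6 had 9 counts. Hand2, which acts in OFT and right ventricle, stood at 21.0 RPKM against 12.2 RPKM for Hand1, a ratio of 1.72 (1.39 to 2.14). Mef2c, the member of the MEF2 family known for second heart field function, was the lowest of the 3 present, at 7.29 RPKM against 32.1 RPKM for Mef2d and 19.2 RPKM for Mef2a.

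Twist1, which keeps cells mesenchymal, stood at 61.0 RPKM and Twist2 at 3.63 RPKM. Prrx2 and Prrx1, homeobox factors of mesenchyme, stood at 67.2 and 24.98 RPKM, and Msx2, a BMP target in cushions, at 20.03 RPKM against 3.35 RPKM for Msx1. Sox9, needed for cushion expansion and cartilage, stood at 20.3 RPKM and held 87.7% of the SoxE genes, and Sox4, a SoxC factor required in mice for OFT septation, stood at 25.5 RPKM. Meis2, a TALE homeobox factor active in crest, stood at 78.5 RPKM and Foxc2, a forkhead factor of arch and mesenchyme, at 12.3 RPKM, each above its nearest relative by more than counting error. Hey2, a Notch target in ventricular and vascular muscle, stood at 53.3 RPKM, with Hey1 at 12.8 RPKM and Heyl at 12.5 RPKM. Of the positional factors, 5 of 35 Hox genes passed the minimum, or 14.3% against 54% of all mRNA genes, led by Hoxb2 at 4.76 RPKM and Hoxd3 at 3.38 RPKM. None of 9 Pax genes passed.

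Nuclear receptors reached 20 counts for 26 of 44, or 59.1% against the same 54%, led by the thyroid hormone receptor Thra at 70.0 RPKM. Of the retinoic acid receptors, Rara stood at 43.4 RPKM, Rarg at 20.6 RPKM and Rarb at 7.49 RPKM. Their partners Rxrb and Rxra, at 26.6 and 23.6 RPKM, did not differ beyond counting error, with a ratio of 1.13 (0.987 to 1.29). ETS factors passed for 17 of 24 genes, or 70.8%, led by the repressor Erf at 40.4 RPKM. Forkhead factors passed for 12 of 30, or 40%, led by Foxo4 at 23.3 RPKM. The intracellular arm of BMP and TGF-beta signalling was led by the inhibitory Smad6 at 75.1 RPKM, with the common partner Smad4 at 53.8 RPKM and the inhibitory Smad7 at 33.1 RPKM.

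**Figure D2:**
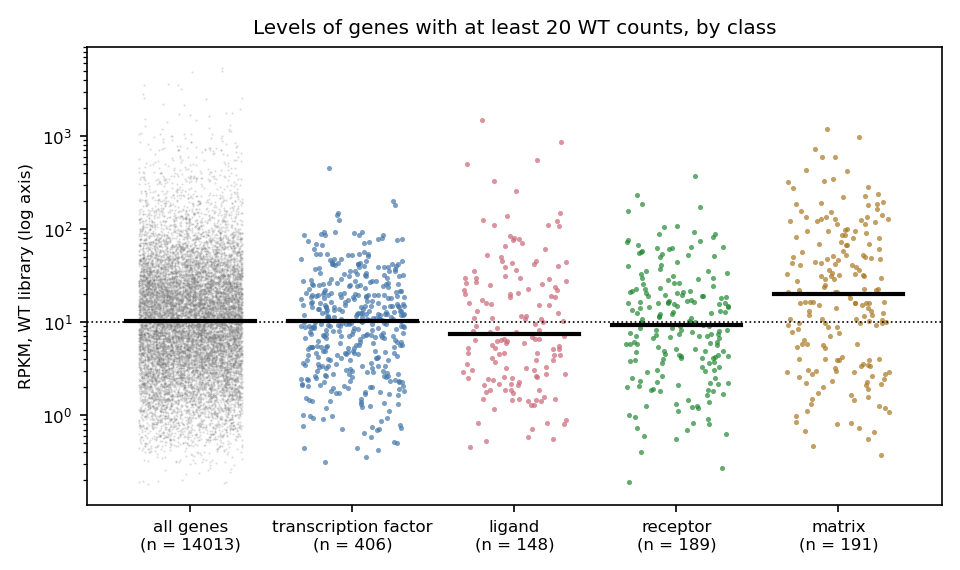
RPKM in the WT library on a log axis for all 14013 genes with at least 20 counts and for the 4 classes. Each point is a gene, black bars are medians and the dotted line marks 10 RPKM. Matrix genes have the highest median, 19.9 RPKM, and ligands the lowest, 7.38 RPKM.

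Of 305 measured ligands, 148 had at least 20 counts, or 48.5% against 54% of all mRNA genes, and their median was 7.38 RPKM among those that passed. Of these, 67 reached 10 RPKM, or 45.3% against the background of 52.6%. The 15 highest held 72.9% of the summed RPKM of the class, and 13 of them were among the 15 highest of the HO library. Igf2 led at 1483 RPKM. Lgals1, a galactose-binding lectin, followed with 855 RPKM (829 to 882). Penk, the precursor of the enkephalin peptides, had 7436 counts and 550.1 RPKM (538 to 563). Fstl1, a secreted glycoprotein of mesenchyme that binds BMPs, stood at 505 RPKM, and midkine, Mdk, a heparin-binding growth factor, at 329 RPKM. Igfbp5, Igfbp4 and Igfbp3, which bind insulin-like growth factors outside the cell, stood at 258, 125 and 71.1 RPKM.

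Of the list of BMP and GDF ligands, 10 of 24 genes passed, or 41.7% against 54% of all mRNA genes. The list of TGF-beta and activin ligands passed for 5 of 8, or 62.5%. Bmp4, a signal of OFT myocardium, had 3370 counts and 147 RPKM and held 69.6% of 6 BMP genes, with Bmp7 at 50.1 RPKM, Bmp6 at 6.49 RPKM and Bmp2 at 5.18 RPKM. Bmp10, a growth factor of trabecular myocardium, had 10 counts. All 3 TGF-beta genes were present: Tgfb2, the cushion form, stood at 38.9 RPKM, Tgfb3 at 29.5 RPKM and Tgfb1 at 18.7 RPKM. Bmp1, a protease that processes procollagen despite its name, stood at 76.6 RPKM. These values are ordered by RPKM, and each leader exceeded the next of its family by more than counting error.

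Wnt, FGF and Hedgehog ligands differed in how much was seen. Wnt5a, a noncanonical Wnt of OFT progenitors, had 3343 counts and 78.5 RPKM. Of 24 genes in the list that holds Wnt and R-spondin ligands 11 passed, or 45.8% against 54% of all mRNA genes. Wnt4 stood at 20.5 RPKM and Wnt11 at 9.43 RPKM. Of 11 secreted Wnt antagonists 7 passed, or 63.6% against the same 54%. They were led by Sfrp1 at 109.7 RPKM, Sfrp2 at 43.4 RPKM and Frzb at 35.6 RPKM. Among genes that passed, the antagonists had a median of 25.6 RPKM and the Wnt and R-spondin list 4.6 RPKM. Over all matched genes the medians were 2.66 and 0.364 RPKM. Of 22 FGF genes 5 passed the minimum, or 22.7%, and only Fgf18, a mesenchymal FGF, exceeded 10 RPKM, at 22.9. Desert hedgehog, Dhh, had 59 counts and Shh and Ihh had 0.

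Guidance and vascular ligands completed the class. Sema3c, a semaphorin needed in mice for septation of the OFT, had 2151 counts and 45.4 RPKM and held 52.5% of the class 3 semaphorins, followed by Sema3f at 22.1 RPKM and Sema3d at 8.54 RPKM. Efnb2, an arterial ephrin, stood at 108.7 RPKM, Slit3 at 43.9 RPKM and the chemokine Cxcl12 at 83.7 RPKM. Vegfa, the main endothelial growth factor, stood at 65.9 RPKM, and Angptl2, an angiopoietin-like protein, at 121 RPKM. Jag1, the Notch ligand of vascular muscle, stood at 25.1 RPKM and held 70.1% of 5 Notch ligands. Edn1, the endothelin that signals to crest, stood at 15.4 RPKM, while Edn3 had 3 counts and netrin, Ntn1, had 12.

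Receptors were more widely detected than ligands. Of 246 in the table, 189 had at least 20 counts, or 76.8% against 54% of all mRNA genes, and 92 reached 10 RPKM, which is 48.7% of those that passed against the background of 52.6%. Among genes that passed, the receptor median was 9.29 RPKM against 10.9 RPKM for mRNA genes. Over all matched genes, where more receptors were detected, it was 5.28 RPKM against 1.58 RPKM. Igf2r led with 30751 counts and 375 RPKM (371 to 380). Bambi, a decoy receptor that blunts BMP and TGF-beta signals, stood at 230.1 RPKM (220 to 241), integrin beta Itgb1 at 185 RPKM and the netrin receptor Unc5b at 173 RPKM (169 to 176). Ptk7, a planar polarity co-receptor of Wnt signals, stood at 157 RPKM. Ramp2, the partner of the adrenomedullin receptor, stood at 108 RPKM and the fibronectin receptor chain Itga5 at 105 RPKM, which overlapped in their intervals.

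The signalling receptors themselves were mostly lower than these. Bmpr1a stood at 20.3 RPKM, Acvr1 at 16.0 RPKM and Tgfbr2 at 15.9 RPKM, all serine-threonine kinases, against 230.1 RPKM for the decoy Bambi. Fgfr1 stood at 92.6 RPKM and held 68.9% of the 4 FGF receptor kinases, and Fgfrl1, which lacks the kinase, stood at 89.2 RPKM. Fzd2 and Fzd1 held 43.5% and 40.9% of 10 frizzled genes, with a ratio of 1.06 (1.001 to 1.13), and Fzd7 itself had 1 count. An unnamed gene whose best match is Fzd7 had 572 counts, and with its reads added Fzd7 would stand at 21.8 RPKM, the third of the family. All 4 Notch receptors were present, with Notch3, the smooth muscle form, at 50.7 RPKM, Notch1 at 33.4 RPKM, Notch2 at 28.6 RPKM and the endothelial Notch4 at 3.86 RPKM.

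Pdgfrb, a receptor of mural cells, stood at 52.1 RPKM and Pdgfra, of mesenchyme, at 40.8 RPKM, a ratio of 1.28 (1.21 to 1.35). Nrp1, a co-receptor for semaphorins and VEGF, stood at 32.8 RPKM, and the semaphorin receptors Plxnb2, Plxnd1 and Plxna1 at 75.3, 44.1 and 35.3 RPKM. Ephb4, the venous receptor of Efnb2, stood at 62.0 RPKM and Smo, the Hedgehog signal transducer, at 64.5 RPKM. Erbb2 led its family at 24.2 RPKM and Egfr, at 73 counts and 0.817 RPKM, was last. Ednra stood at 9.96 RPKM and Ednrb at 4.77 RPKM.

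Lrp1, a large endocytic receptor and a known cargo of sorting nexin 17, had 9982 counts and 71.8 RPKM. By raw counts Lrp1 was the second receptor of the class, and per length it was at rank 14. Snx17 itself had 1365 counts and 76.1 RPKM (72.2 to 80.3), rank 995 of 14013. It was the highest of 26 genes of its recycling machinery, of which 24 had at least 20 counts, with Vps29 at 46.8 RPKM, Commd1 at 43.4 RPKM and Commd9 at 39.8 RPKM, all subunits of the retriever and CCC complexes. Snx31, the close relative of Snx17, had 0 counts. In the HO library Snx17 had 994 counts and 54.2 RPKM, so reads of the gene were still counted there. Where the deletion lies relative to these reads was not analysed here. The study reported a frameshift from a deletion in the phox homology domain, and found the protein almost absent in HO tissue at a later stage.

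**Figure D3:**
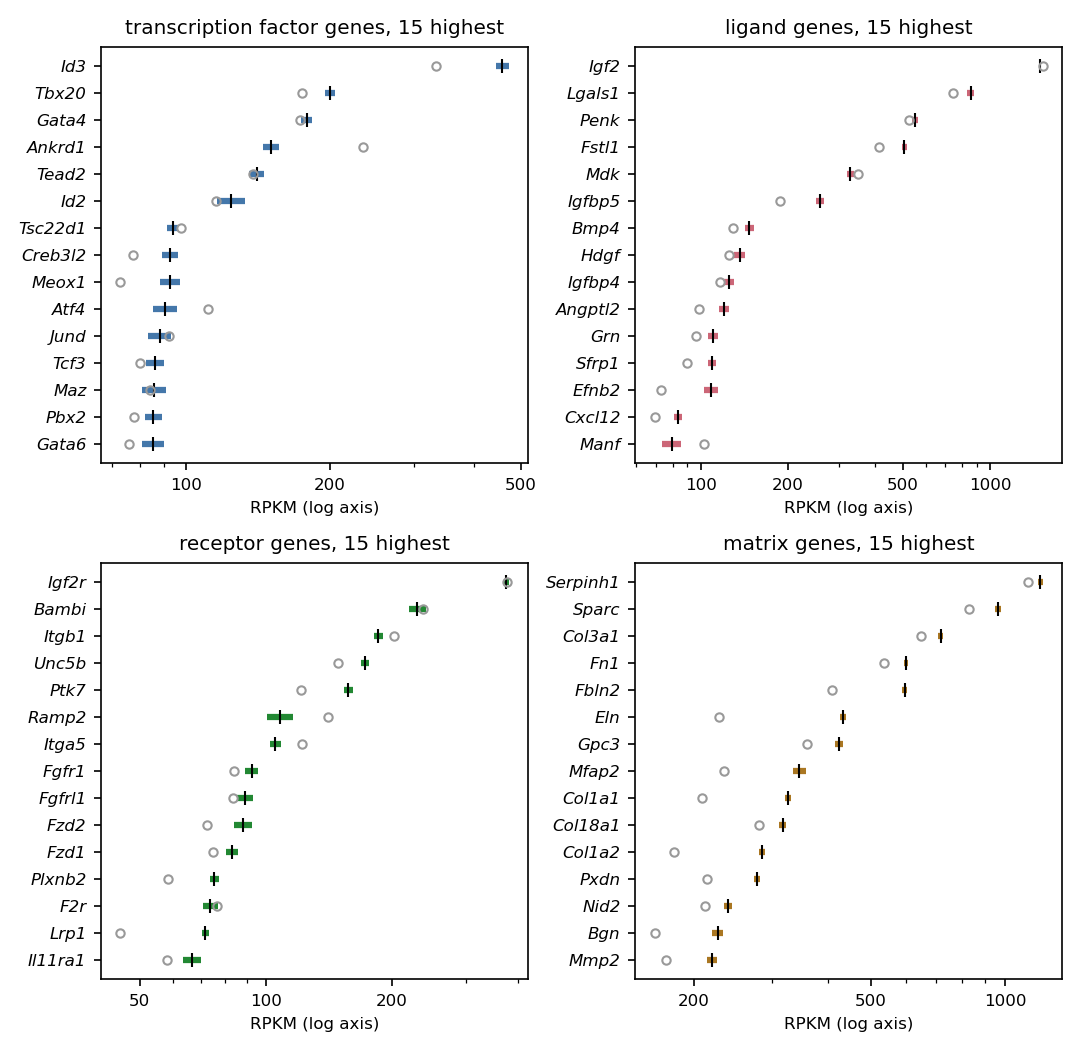
The 15 highest genes of each class by RPKM on a log axis. Black ticks are WT values, coloured bars are exact Poisson 95% intervals of the WT count, and open grey circles are the HO library. Bars of neighbours in the lower part of the transcription factor panel overlap, while the leaders Id3, Igf2, Igf2r and Serpinh1 stand apart from the next gene.

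Ligands were set beside receptors for 75 known pairs, with a partner counted as present at 20 counts or more and 1 RPKM or more. Both partners were present for 56 pairs, only the ligand for 5, only the receptor for 13 and neither for 1. Several pairs share a ligand or a receptor, so they are not independent, and the pairs were chosen by hand. Over the whole ligand and receptor classes, 48.5% and 76.8% of genes had 20 counts or more. Complete pairs of OFT interest included Bmp4 with Bmpr1a at 147 and 20.3 RPKM, Tgfb2 with Tgfbr2 at 38.9 and 15.9 RPKM, and Edn1 with Ednra at 15.4 and 9.96 RPKM. Sema3c, at 45.4 RPKM, was accompanied by Nrp1 at 32.8 RPKM, Plxnd1 at 44.1 RPKM and Plxna2 at 5.77 RPKM. Jag1, at 25.1 RPKM, stood near Notch2 at 28.6 RPKM. Cxcl12 had both of its receptors, Cxcr4 at 16.3 RPKM and Cxcr7 at 18.8 RPKM, and Igf2 stood at 121 times the RPKM of its signalling receptor Igf1r, at 12.3 RPKM, and 3.95 times that of Igf2r.

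The receptor was present without the ligand for Fgf8 with Fgfr1, for Fgf10 with Fgfr2 and for Fgf9 with Fgfr3, where the ligands had 12, 16 and 9 counts. Fgf8 and Fgf10, at 1.31 and 2.65 RPKM, missed only the minimum of counts. Fgf18, the highest FGF ligand at 22.9 RPKM, was in none of the pairs. Unc5b, at 173 RPKM, and Neo1, at 23.1 RPKM, had no counterpart in Ntn1, at 0.575 RPKM. Ptch1, the Hedgehog receptor, had 292 counts and 7.28 RPKM with Shh at 0 counts, though with the Hedgehog ligand Dhh, at 59 counts and 2.55 RPKM, it formed a complete pair. Plxnd1 stood at 44.1 RPKM with Sema3e at 7 counts. The ligand was present without the receptor for Wnt11 with Fzd7, Hbegf with Egfr, Mif with Cd74, Ptn with Ptprz1 and Col1a1 with Itga11. Col1a1 formed complete pairs with its other listed receptors Itga1, at 7.05 RPKM, and Ddr2, at 5.43 RPKM. With the reads of the unnamed copy of Fzd7 added, Wnt11 with Fzd7 would count as complete. Cd74, a chain of antigen-presenting cells, had 2 counts, and the Ptn receptor Ptprz1 had 14.

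**Figure D4:**
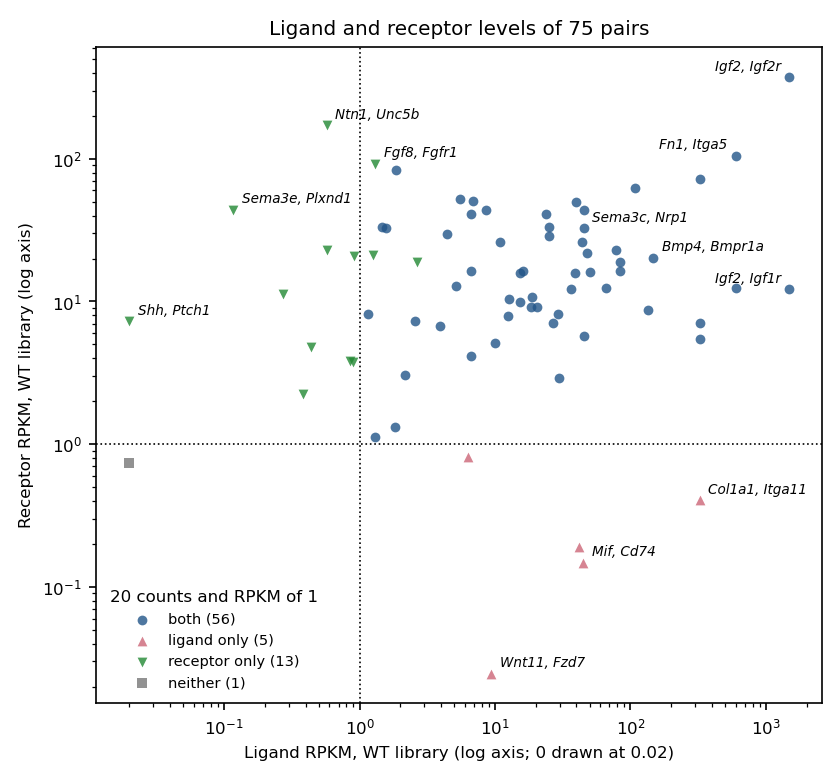
Ligand RPKM against receptor RPKM in the WT library for 75 pairs, both on log axes, with a ligand at 0 drawn at the left edge. Dotted lines mark 1 RPKM, and marker shape and colour give which partner was present. Of the pairs, 56 lie in the upper right, and Ntn1 with Unc5b and Fgf8 with Fgfr1 have high receptors with ligands near or under 1 RPKM.

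Matrix genes were the class that stood highest. Of 238 in the table, 191 had at least 20 counts, or 80.3% against 54% of all mRNA genes, and 122 of these reached 10 RPKM, or 63.9% against 52.6%. Their median was 19.9 RPKM, and 37 reached 100 RPKM. Of the 15 highest, 13 were again among the 15 highest in the HO library. Serpinh1, the chaperone that collagen needs in the endoplasmic reticulum, led with 22820 counts and 1199 RPKM (1184 to 1215). Sparc, a collagen-binding glycoprotein of basement membranes, followed with 965 RPKM (951 to 979), and fibrillar collagen Col3a1 with 716 RPKM (709 to 724).

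Fibronectin, Fn1, had 46476 counts and 598 RPKM (593 to 604), which did not differ beyond counting error from Fbln2, a fibulin of cushion and arterial matrix, at 595 RPKM (588 to 602). The elastic fibre list was present for 24 of 25 genes. Elastin, Eln, stood at 432 RPKM (425 to 440) and Mfap2, a microfibril glycoprotein, at 345 RPKM (333 to 357). Fibrillins Fbn2 and Fbn1, the microfibril scaffold, stood at 188 and 127 RPKM, a ratio of Fbn1 to Fbn2 of 0.678 (0.662 to 0.694). Ltbp4, which stores TGF-beta in the matrix, stood at 194 RPKM and held 64.8% of its family. Loxl2, a crosslinking oxidase, stood at 154 RPKM and held 72.8% of the lysyl oxidases, with Lox itself at 10.8 RPKM. In the HO library Eln stood at 228 RPKM and Mfap2 at 233 RPKM.

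Collagen chains that assemble together were compared per length. The chains of type I collagen, which join in a proportion of more Col1a1 than Col1a2, stood at 326 and 284 RPKM, a ratio of 1.15 (1.12 to 1.17). For basement membrane collagen, Col4a1 and Col4a2 stood at 184 and 135 RPKM, a ratio of 1.36 (1.32 to 1.40). Col5a1 and Col5a2, which nucleate fibrils, were indistinguishable by counting error, at 124 and 122 RPKM and a ratio of 1.01 (0.980 to 1.04), and Col5a3 had 18 counts. In collagen VI the third chain was far below the others, with Col6a1 at 41.3 RPKM, Col6a2 at 47.4 RPKM and Col6a3 at 2.19 RPKM, a ratio of Col6a2 to Col6a3 of 21.7 (18.8 to 25.02). RPKM ratios of transcripts are not ratios of protein chains.

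Basement membrane genes were broadly present, for 19 of 20 in the list. The laminin chains Lamc1 and Lamb1 stood at 136 and 128 RPKM, a ratio of Lamb1 to Lamc1 of 0.941 (0.913 to 0.970). Among alpha chains, which set the laminin type, the mesenchymal and endothelial Lama4 led at 60.7 RPKM, followed by Lama5 at 41.2 RPKM, while Lama2 and Lama1 stood at 2.94 and 2.62 RPKM and Lama3 had 18 counts. Nid2, a linker of laminin and collagen, stood at 238 RPKM and Nid1 at 95.9 RPKM. Col18a1, the source of endostatin, stood at 316 RPKM and agrin, Agrn, at 142 RPKM.

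Cushion jelly and proteoglycans formed a further group. Has2, the enzyme that makes hyaluronan in heart cushions, had 703 counts and 18.1 RPKM and held 98.8% of its family, since Has3 had 17 counts and Has1 had 0. Vcan stood at 181 RPKM, the hyaluronidase Hyal2 at 79.2 RPKM and the link protein Hapln1 at 66.9 RPKM. Gpc3, a heparan sulphate glypican that limits growth, stood at 423 RPKM and held 81.6% of the glypicans, and Sdc3 led the syndecans at 127 RPKM. Of small leucine-rich proteoglycans, biglycan, Bgn, stood at 226 RPKM and lumican, Lum, at 43.5 RPKM, but decorin, Dcn, at 2.91 RPKM. Of matricellular proteins, Tgfbi stood at 156 RPKM, thrombospondin Thbs1 at 122 RPKM and Postn at 113 RPKM. Mmp2 and Mmp14, a gelatinase and its membrane-bound activator, stood at 219 and 166 RPKM.

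Across 63 families with 248 members, the leading gene held a median of 66.4% of the summed RPKM. In the 15 families of 2 measured genes it exceeds 50% by construction. In the 48 families of 3 or more the median was 60.1%, and the leader held more than 50% in 40. It held more than 90% in 4 families, led by Has2, Nkx2-5, Twist1 and Thbs1. For Thbs1 this rests on the counting of a relative, since an unnamed gene whose best match is Thbs4 had 939 counts, and with reads of copies added the share of Thbs1 was 75.3%. In 61 families the leader exceeded the second gene by more than counting error, the exceptions being Rxrb with Rxra and Col5a1 with Col5a2. The HO library had the same leader in 59 families. The 4 others were led there by Sox7 in place of Sox18, Fzd1 in place of Fzd2, Col6a1 in place of Col6a2 and Col5a2 in place of Col5a1.

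**Figure D5:**
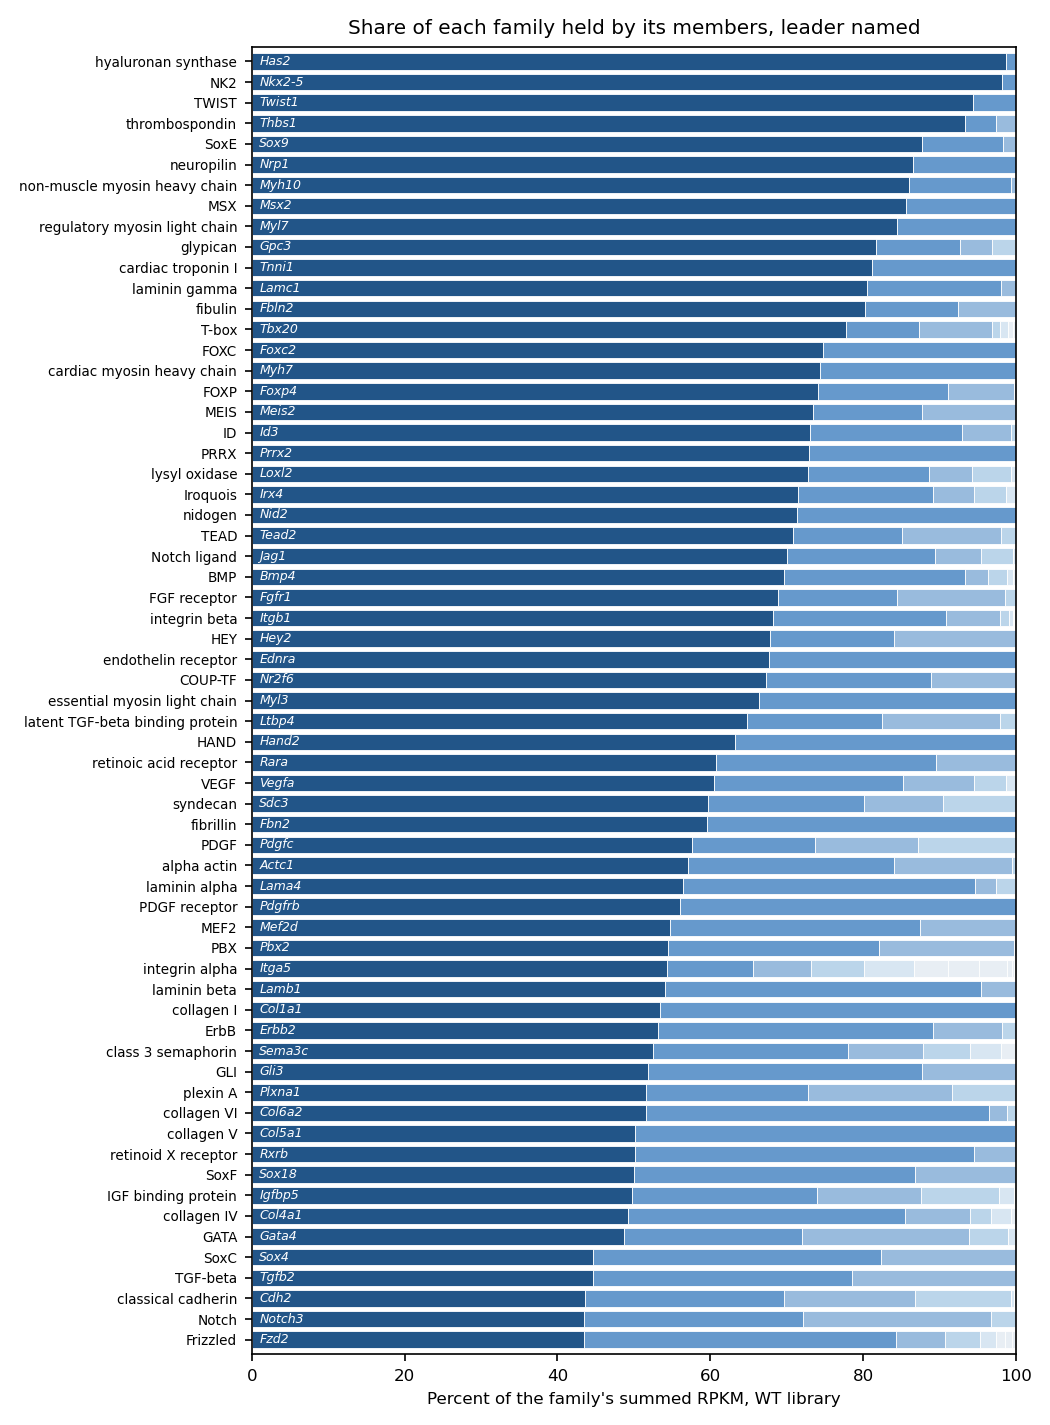
Share of each family's summed RPKM in the WT library held by its members, 1 bar per family, sorted by the share of the leader, whose name is printed. Darker segments are higher members. Has2, Nkx2-5, Twist1 and Thbs1 exceed 90%, although Thbs1 would hold 75.3% with the reads of unnamed copies added, and Fzd2, Notch3, Cdh2, Tgfb2 and Sox4 lead families with shares of 43.5% to 44.7%.

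Reads at microRNA loci were few, and the library was not one of small RNAs, and its counts do not separate precursors from host transcripts. Of these loci 10 had at least 20 counts. Mir675, which lies within H19, had 314 counts and 401 RPKM (358 to 448), Mir3102 had 176, Mir6315 had 78, Mir214 had 57, Mir770 had 44, Mir126 had 38, Mir199a2 and Mir3577 had 32 each, Mir145 had 29 and Mir143 had 23. The mature forms below, from RefSeq on build GRCr8, belong to the locus inside the highest gene of the library and to those in mesenchyme and smooth muscle, with the seed (bases 2 to 8) in capitals:
rno-miR-675-5p: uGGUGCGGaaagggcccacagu
rno-miR-675-3p: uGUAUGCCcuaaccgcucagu
rno-miR-214-3p: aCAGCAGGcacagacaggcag
rno-miR-199a-3p: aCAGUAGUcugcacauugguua
rno-miR-199a-5p: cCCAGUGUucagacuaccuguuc
rno-miR-145-5p: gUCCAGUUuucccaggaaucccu
rno-miR-143-3p: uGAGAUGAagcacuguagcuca
No pair of these shares a seed.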

How the data were processed

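Total RNA from pooled OFTs was made into Ion Torrent libraries and sequenced single-end. The authors aligned reads to the rat genome with MapSplice, build Rnor 6.0 in the submitters' processing notes, and deposited read counts per gene and RPKM for each library (counting tool and strand setting: not given in the sources used here). These RPKM values implied a total of 9322416 reads, 0.00649% above the column sum, and gave transcript lengths whole within 0.01 bases for every member. Levels were taken as deposited, with exact Poisson intervals for counts and exact Clopper-Pearson intervals of the count split for ratios, both for counting error only (Python 3.11.15, numpy 2.4.6, pandas 2.3.3, scipy 1.17.1, matplotlib 3.10.9); scripts were tested on simulated data. A count of 0 allows up to 3. With 1 library per genotype there was no test.

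Class, family, pair and marker lists were written by hand with earlier results of these data known; 1754 of 1833 listed symbols were matched, 42 through RefSeq synonyms. The text names the 25 highest named genes, the 15 highest of each class, up to 4 of each list, for marker lists the 3 highest and those at 0, and members of families and pairs. Outside this rule, Acan, Ahsp, Cdkn1c, Dcn, Dio3, Isl1, Matn1, Mest, Myod1, Myog, Phlda2, Tcap and Ttn were chosen after their values were seen. Alternatives were other count minimums, other scalings, counts without length and reads of copies. A few genes that the rule would name are not reported here.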

Additional observations from a re-analysis of the deposited data

How the results depend on the processing

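Without a minimum beyond 1 count, 21610 genes would count as members in place of 14013, and with minimums of 10 and 100 counts 15525 and 10263. The number at 10 RPKM or more changed little with the minimum, from 6950 to 7162 around 7145, because few genes of that level had low counts. It became 6659 at the lower end of the Poisson interval, 7372 with RPKM recomputed on the reads left without mitochondrial, globin and ribosomal protein genes, and 10005 after scaling to TPM, which multiplied every value by 2.15. The TPM scaling gave 290 transcription factors, 91 ligands, 129 receptors and 141 matrix genes, so these counts depend on the unit, while the order of genes does not. Both partners were present for 59 pairs at 10 counts, 47 at 100 counts and 44 at 5 RPKM, around 56. The pairs gained at 10 counts were Fgf8 with Fgfr1, Fgf10 with Fgfr2 and Nppc with Npr2. With reads of unnamed copies added, an alternative chosen after seeing the data, it was 57, the change being Wnt11 with Fzd7. The family leader was the same in 60 of 63 families by counts without length, in 63 with reads of copies added and in 59 in the HO library.

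Of the 10 highest genes of each class, 34 of 40 moved beyond their counting error when ranked by counts in place of RPKM, and 3 of 40 when reads of copies were added. No paired analysis was possible because each genotype had 1 library and the labels give no replicate numbers. Depth limits genes near the minimum, where 20 counts carry wide intervals, and for the same reason genes at 0 cannot be called absent.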
